A study of Homo sapiens with 42 samples.

Results

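The comparison was between a clonal cell line with an edited HIF-1β gene and the unedited cells it was made from, and it took 6 of the 42 libraries of the series: 3 of HIF-1β knock-in (KIN) cells and 3 of wild-type (WT) cells, picked by the genotype in their labels. All were 786-O cells, a human clear cell renal cell carcinoma (ccRCC) line that has no working VHL, so that HIF-2α is not degraded, and that makes no functional HIF-1α. In HIF-1β KIN cells both alleles of the gene for HIF-1β, ARNT, carried a V5 epitope and a HaloTag, a protein that binds fluorescent ligands, at the N-terminus; the line was a single clone, A21. WT cells were unedited. Neither group was given a treatment by its labels. The 6 libraries were made in the first of the study's poly(A) RNA-seq batches, together with 3 libraries of a second clone, HIF-2α KIN (V5 and HaloTag at the N-terminus of HIF-2α, clone A31), and 18 libraries of 786-O lines with an L30-driven HIF-α transgene. By their titles these lines carried HIF-1α or HIF-2α, each as the unmutated form, a DNA-binding mutant or a dimerization mutant, in 3 libraries each. A range over the 18 libraries thus pools functional and mutant forms. The question was how gene expression in the edited cells compared with that in the cells they came from. Because 1 clone was sequenced, an effect of the tag and a difference that the founder cell of the clone already carried cannot be told apart, and the replicates measure the spread within 1 clone.

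HIF is a pair of bHLH-PAS proteins. An oxygen-regulated α subunit (HIF-1α or HIF-2α) joins the constitutive β subunit, and the dimer binds the hypoxia response element (HRE) near genes for glucose uptake, glycolysis, angiogenesis and erythropoiesis. HIF-1β is also known as ARNT, the aryl hydrocarbon receptor nuclear translocator, since it pairs with the aryl hydrocarbon receptor (AHR) and with other members of the family. In VHL-deficient ccRCC, HIF-2α is present in normal oxygen and its targets are expressed without hypoxia.

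The 6 libraries had between 59888978 and 101186554 reads assigned to genes. Levels below are normalized read counts, scaled so that the 27 libraries of the batch had the same effective size, and are given in the order of replicates 1, 2 and 3. Markers of the line were present throughout. PAX8, the renal lineage transcription factor, had 27379, 31838 and 36761 normalized counts in WT and 19338, 23450.1 and 30855 in HIF-1β KIN cells, and VIM, KRT8, KRT18, AXL and CD70 ranged from 9686 for KRT18 in HIF-1β KIN 1 to 153777 for KRT8 in WT 3. CA9, a hypoxia target often used to mark ccRCC, was at 2.8 or less in all 6 libraries. Of the markers of other cell types, PTPRC, CD3E, PECAM1, EMCN, DCN and PDGFRA had no read in any of the 6. Other markers of such types had reads in all of them. Among these were COL1A1 of fibroblasts (503 to 1024), CSF1R of leukocytes (154 to 266), ESAM of endothelium (28.9 to 118) and TUBB3 of neurons (1210 to 3087). In RNA from whole cultures a smaller number of cells that express a gene and less of its RNA per cell cannot be told apart. The libraries numbered 3 stood apart from those numbered 1 and 2 in both groups, and same-numbered libraries deviated together, so each comparison was also fitted with that number as a block.

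The edited gene was not called different, and neither were the genes of its partners. ARNT (chromosome 1, 150809713 to 150876708 of hg38) had 1594, 1705 and 1471 normalized counts in WT and 1345, 1902 and 1494 in HIF-1β KIN cells. The 2 groups overlapped, and the change was not called (log2 change -0.01 ± 0.23 SE, adjusted p = 1, edgeR's quasi-likelihood test, adjusted after Benjamini and Hochberg). The tag's own sequence was not counted, so these values do not check the label. EPAS1, which encodes HIF-2α, had 12388, 13828 and 16484 in WT and 7496, 9934 and 13207 in HIF-1β KIN cells; 1 KIN library lay within the WT range and the change was not called (log2 change -0.48 ± 0.20 SE, adjusted p = 0.261). HIF1A was low in both, at 235, 223 and 255 and 197, 181 and 265 (log2 change -0.15 ± 0.23 SE, adjusted p = 0.865). ARNT2 and AHR, 2 other members of the family, had lower means without being called. ARNT2, a paralog of ARNT, had 1041, 1239 and 1136 in WT and 696, 782 and 701 in KIN cells (log2 change -0.65 ± 0.15 SE, adjusted p = 0.0132), with no overlap of the groups but less than a 2-fold change. AHR had 907, 732 and 896 and 465, 508 and 708 (log2 change -0.59 ± 0.23 SE, adjusted p = 0.228). Of 15 tested genes for HIF, AHR and related bHLH-PAS proteins, 0 were called by edgeR, beside 1.38% of all tested genes, and 0 by DESeq2. Of these 15, 4 had an unadjusted edgeR p under 0.05.

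Across the genome, 92 genes had higher and 230 had lower counts in the clone than in the unedited cells, 0.394% and 0.985% of the 23339 genes tested and 1.38% in all. A gene was called when the adjusted p was at most 0.01 and the change at least 2-fold. None of the called genes had overlapping groups, which the calling rule makes likely with 3 libraries a group. Of all tested genes 17.9% were without overlap. The falls were the larger changes. 96 of the lower genes fell by a log2 change of 3 or more and 8 of the higher genes rose as much, and the median log2 change was -2.57 for lower and 1.47 for higher genes (-2.36 for lower genes when the 18 with no read in any KIN library are set at the limit that 3 counts per library allow). 16 genes with a mean of at least 50 normalized counts in WT cells were under 10 in every KIN library, whereas 1 gene showed the reverse. 83 of the higher and 220 of the lower genes were protein coding. With the replicate block 162 genes were higher and 316 lower, among them all 92 and all 230. The number of higher genes was 53 without WT 2 and from 65 to 77 without each of the other 5 libraries in turn, and 44 higher and 137 lower genes were called in all 6 of these fits.

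**Figure D1:**
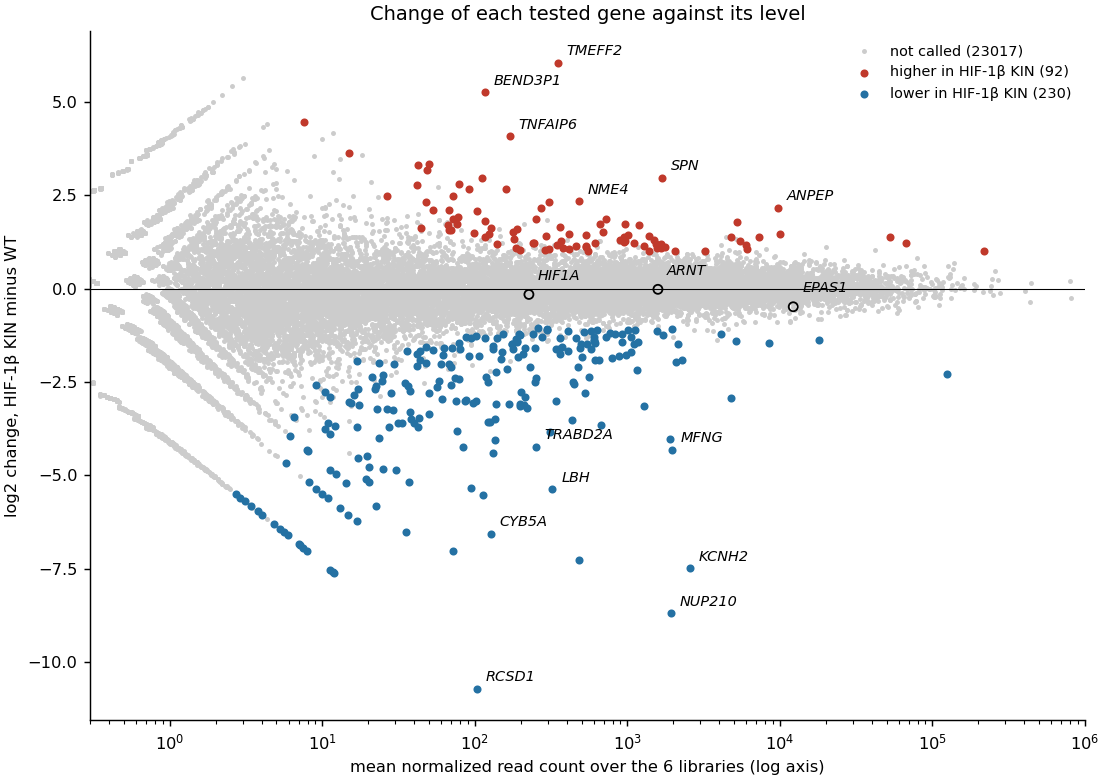
Log2 change from WT to HIF-1β KIN cells of each of 23339 tested genes (vertical axis) against its mean normalized read count over the 6 libraries (horizontal log axis); red points are the 92 genes called higher, blue the 230 called lower, and rings mark the HIF subunit genes. ARNT lies on the zero line, TMEFF2 is the highest called gene at 6.06, and RCSD1, with no read in KIN cells, is drawn at its fitted value, which depends on the prior count.

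The 14 genes with the largest rise included several whose products sit at the cell surface or are secreted. TMEFF2 (chromosome 2, 191949043 to 192194933), a transmembrane protein with follistatin-like and EGF-like domains, was almost silent in WT cells at 7.33, 6.53 and 16.1 normalized counts and had 673, 621 and 768 in HIF-1β KIN cells (log2 change 6.06 ± 0.49 SE, adjusted p = 3.06e-09). TNFAIP6 (chromosome 2, 151357592 to 151380046), a secreted hyaluronan-binding protein induced in inflammation, had 26.9, 17.7 and 11.2 in WT and 398, 359 and 201 in KIN cells (log2 change 4.10 ± 0.39 SE, adjusted p = 5.58e-08). SPN, the sialoglycoprotein CD43 best known from leukocytes, had 383, 369 and 379.7 and 2309.9, 3435 and 3198 (log2 change 2.98 ± 0.24 SE, adjusted p = 3.94e-09). In all 3 genes the lowest KIN library was several times above the highest WT library. ANPEP, aminopeptidase N of the proximal tubule brush border, was the most abundant gene of the 14, with 3062, 3980.5 and 3431 in WT and 12694, 18459.5 and 16299.7 in KIN cells (log2 change 2.17 ± 0.19 SE, adjusted p = 1.29e-08). NME4, a mitochondrial nucleoside diphosphate kinase, had 167, 163 and 141 and 829.7, 782 and 798 (log2 change 2.35 ± 0.22 SE, adjusted p = 3.94e-08), and its KIN libraries were within a few percent of each other.

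SLITRK4, a neuronal adhesion protein with leucine-rich repeats, rose from 24.9 ± 8.57 to 196 ± 25.1 normalized counts (SD, n = 3 each; log2 change 2.97 ± 0.39 SE, adjusted p = 1.42e-05). TRO, the adhesion protein trophinin, rose from 43.2 ± 7.32 to 277 ± 51.6 (log2 change 2.67 ± 0.38 SE, adjusted p = 5.27e-05). SCARA3, a class A scavenger receptor, rose from 101 ± 22.2 to 511 ± 173 (log2 change 2.33 ± 0.28 SE, adjusted p = 3.63e-06). For each of these genes every KIN library lay above the highest WT library. The tetraspanin TSPAN11 rose by a log2 change of 2.81, the epoxide hydrolase family gene EPHX4 by 2.67 and the phospholipid flippase ATP8B2 by 2.15, all 3 called in every fit that left out a library. KCNJ8, which encodes the pore of a KATP channel, had 22.8, 19.6 and 33.5 in WT and 113, 98.2 and 121 in KIN cells (log2 change 2.12 ± 0.39 SE, adjusted p = 0.00117); the call was lost without WT 1 or 2 (adjusted p from 0.0112 to 0.0149). PDGFD, a PDGF receptor ligand, had 36.6, 16.8 and 11.9 and 129, 122 and 114 (log2 change 2.47 ± 0.54 SE, adjusted p = 0.00683), and the call was lost without HIF-1β KIN 1, 2 or 3 or without WT 2 or 3 (adjusted p from 0.0174 to 0.0578). BEND3P1, a transcribed pseudogene of BEND3, had 4.89, 3.73 and 8.38 and 229, 190.2 and 257 (log2 change 5.26 ± 0.62 SE, adjusted p = 2.30e-06). Only reads that aligned to a single place were counted, so reads that match both it and its parent gene are missing and the value is uncertain. BEND3 had 407, 499 and 591 and 450.0, 632 and 759 (log2 change 0.30 ± 0.24 SE, adjusted p = 0.683).

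Among the 14 genes with the largest fall, several were well expressed in WT cells and almost without reads in the clone. RCSD1 (chromosome 1, 167630093 to 167708696), which encodes a protein that binds the actin capping protein CapZ, had 189, 186 and 241 normalized counts in WT cells and no read in any KIN library, which makes it at least 69.6-fold lower when 3 counts per library are taken as the limit of detection (adjusted p = 1.01e-08). NUP210 (chromosome 3, 13316235 to 13420322), a membrane glycoprotein of the nuclear pore, had 3413, 3809.7 and 4276 in WT and 5.33, 2.09 and 18.4 in KIN cells (log2 change -8.69 ± 0.42 SE, adjusted p = 2.00e-13). KCNH2, the potassium channel hERG, had 4533, 4518 and 6293 and 23.5, 19.9 and 41 (log2 change -7.48 ± 0.37 SE, adjusted p = 2.00e-13). For each of these genes every KIN library was far under the lowest WT library. MFNG, a fringe glycosyltransferase that modifies Notch receptors, had 3301, 3827 and 4046 in WT and 135, 237 and 192 in KIN cells (log2 change -4.31 ± 0.22 SE, adjusted p = 2.10e-13). Such limits, and the counting intervals given below, cover counting error only.

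Other genes of this group fell from moderate levels. Cytochrome b5, CYB5A, fell from 251 ± 35.7 to 2.38 ± 2.29 normalized counts (log2 change -6.56 ± 0.39 SE, adjusted p = 1.01e-11). LBH, a transcriptional regulator of limb and heart development, fell from 628 ± 70.8 to 15.3 ± 2.15 (log2 change -5.36 ± 0.36 SE, adjusted p = 7.00e-11). PTCH1, the Hedgehog receptor, fell from 185 ± 10.7 to 4.47 ± 3.16 (log2 change -5.32 ± 0.38 SE, adjusted p = 1.91e-10). In all 3 the highest KIN library lay below 20 normalized counts and the lowest WT library above 150. The log2 change of the heparan sulfate 6-O-sulfotransferase HS6ST2 was -4.24, adjusted p = 5.35e-08, and that of the inward rectifier KCNJ15 was -4.06, adjusted p = 9.15e-08. TRABD2A, a metalloprotease that inactivates WNT ligands, had a log2 change of -4.23, adjusted p = 6.45e-13; it overlaps TMSB10 on the other strand, whose log2 change was -0.08. LOXL1-AS1 had a log2 change of -4.39, adjusted p = 8.83e-11. The library kit does not mark strand, so its reads cannot be told apart from those of the overlapping gene LOXL1, which had 3612, 2881 and 4339.5 and 928, 778 and 1189.5 (log2 change -1.90 ± 0.30 SE, adjusted p = 0.000153).

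**Figure D2:**
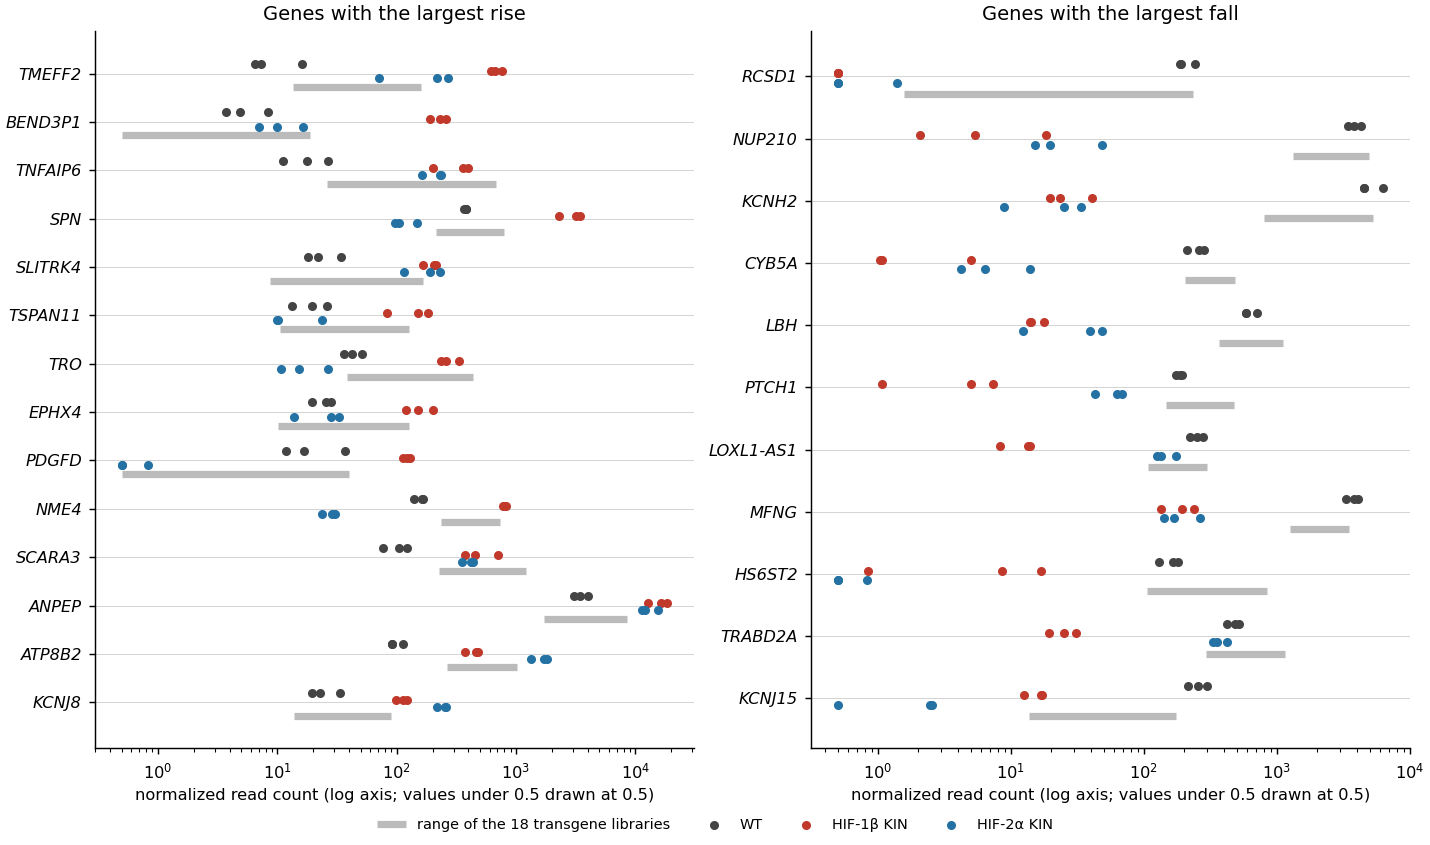
Normalized read counts (horizontal log axis) of the 14 genes with the largest rise (left) and 11 of those with the largest fall (right) in HIF-1β KIN cells; points are single libraries of WT (black), HIF-1β KIN (red) and HIF-2α KIN cells (blue), and grey bars span the 18 transgene libraries of the same batch. Red points lie apart from black ones in each row, while blue points fall beside the red in some rows, such as NUP210 and KCNH2, and beside the black in others, such as TRABD2A.

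The sequences before the start sites of the most changed genes are shown because the HIF and AHR dimers bind short DNA letters that can be looked for there. The 250 bases upstream of the start are given, from RefSeq on GRCh38.p14, for the 2 risen and the 2 fallen genes at the top of each order that have an entry, 5′ to 3′ in the direction of the gene, with the HRE core (ACGTG or GCGTG, on either strand) in capitals.
TMEFF2 (chr2:192194934-192195183, minus strand): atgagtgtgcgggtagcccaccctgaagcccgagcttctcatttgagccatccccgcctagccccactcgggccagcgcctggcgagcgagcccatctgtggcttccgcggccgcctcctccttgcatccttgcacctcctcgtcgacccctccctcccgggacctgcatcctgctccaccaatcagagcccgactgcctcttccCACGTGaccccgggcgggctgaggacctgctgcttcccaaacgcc
TNFAIP6 (chr2:151357342-151357591, plus strand): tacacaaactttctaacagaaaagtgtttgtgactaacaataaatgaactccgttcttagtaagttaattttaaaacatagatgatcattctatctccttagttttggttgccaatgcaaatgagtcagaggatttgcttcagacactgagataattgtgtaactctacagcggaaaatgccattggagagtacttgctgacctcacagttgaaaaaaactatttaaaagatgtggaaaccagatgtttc
RCSD1 (chr1:167629982-167630231, plus strand): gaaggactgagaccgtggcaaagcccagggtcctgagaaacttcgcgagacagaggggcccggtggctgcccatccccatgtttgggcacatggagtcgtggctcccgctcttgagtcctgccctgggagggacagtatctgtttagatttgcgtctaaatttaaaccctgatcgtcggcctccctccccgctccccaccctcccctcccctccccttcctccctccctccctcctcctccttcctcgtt
NUP210 (chr3:13420323-13420572, minus strand): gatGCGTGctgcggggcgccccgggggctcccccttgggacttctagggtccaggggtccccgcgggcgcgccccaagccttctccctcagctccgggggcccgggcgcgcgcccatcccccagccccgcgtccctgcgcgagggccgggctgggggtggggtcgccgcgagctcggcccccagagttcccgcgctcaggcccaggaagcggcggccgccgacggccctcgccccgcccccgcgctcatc
TMEFF2 held 1 palindromic CACGTG, with overlapping cores on the 2 strands, and NUP210 held 1 GCGTG at its far end. The other pair held none of these letters. For RCSD1 the RefSeq start lay 139 bases inside the gene as placed by a GENCODE release later than that used for counting. The NUP210 window had 33 CpG dinucleotides and the TNFAIP6 window 2.

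Over 250 bases before and 50 after the start, 36 of 66 called higher genes with a RefSeq entry held an HRE core, 54.5% (95% Wilson interval 42.6 to 66). Among called lower genes 71 of 154 did, 46.1% (38.4 to 54), and among all tested genes 7672 of 12632, 60.7%. The AHR-ARNT element TNGCGTG, which contains one of the cores, was found in 6 higher genes, 9.09%, in 2 lower genes, 1.3%, and in 6.83% of all. The median number of CpG dinucleotides per window was 22 for lower, 24 for higher and 25 for all tested genes. These matches are descriptions of sequence, and binding was not measured in these libraries; the motif counts cover the genes with an entry, and 12632 of the 23339 tested genes had one.

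Of 39 classic targets of the HIF dimer, 0 were called between the clone and WT cells by edgeR without the block and 0 by DESeq2, beside 1.38% of all tested genes called by edgeR. Of these targets, 13 had groups without overlap, beside 17.9% of all tested genes, 6 had an unadjusted edgeR p under 0.05, and their median log2 change was 0.02, beside -0.03 for all tested genes. VEGFA, the angiogenic growth factor, had 16103, 16649 and 15474 normalized counts in WT and 15484, 16052 and 17838 in HIF-1β KIN cells (log2 change 0.03 ± 0.13 SE, adjusted p = 0.979). SLC2A1, the glucose transporter GLUT1, had 107037, 104079 and 122866 and 139670, 129896 and 150449 (log2 change 0.33 ± 0.16 SE, adjusted p = 0.396). The groups overlapped for VEGFA, and for SLC2A1 the KIN libraries were all higher, by less than 2-fold. LDHA, lactate dehydrogenase A, had 39639.8, 31016 and 33566 in WT and 46658, 40472 and 28459 in KIN cells (log2 change 0.14 ± 0.23 SE, adjusted p = 0.874). PFKFB3, a regulator of glycolytic flux, passed the adjusted p but not the fold, with 12080.0, 12567 and 14556 in WT and 17396, 20574 and 26653 in KIN cells (log2 change 0.72 ± 0.16 SE, adjusted p = 0.00689). The neuronal liprin PPFIA4 had a log2 change of -1.68, adjusted p = 0.0937, and was called lower with the replicate block (adjusted p = 0.00989).

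None of 9 xenobiotic targets of the AHR-ARNT dimer were called by edgeR or by DESeq2, beside 1.38% of all tested genes called by edgeR. Of these 9, 6 had an unadjusted edgeR p under 0.05, and the median log2 change was 0.31. CYP1B1, the most abundant cytochrome of the list, had 4334, 4210.1 and 7297 in WT and 9474, 8739 and 14659 in KIN cells, without overlap (log2 change 1.05 ± 0.39 SE, adjusted p = 0.182); with the block it was called higher (adjusted p = 0.00112). NQO1, a quinone reductase, had 7950.4, 6071 and 6859 and 10639.8, 8511 and 7655 (log2 change 0.36 ± 0.16 SE, adjusted p = 0.318). UGT1A6, a glucuronosyltransferase whose exons partly coincide with those of its UGT1A neighbours, had 1043, 833 and 797 and 1858, 1529 and 1148 (log2 change 0.76 ± 0.18 SE, adjusted p = 0.0152), also without overlap. Of 12 genes for the oxygen-sensing hydroxylases and the VHL complex, 0 were called by either tool, 0 had an unadjusted edgeR p under 0.05, and the most abundant of the hydroxylases, EGLN3, had 5235, 5298 and 6533 and 5874, 6752 and 8198 (log2 change 0.28 ± 0.23 SE, adjusted p = 0.687). Of 21 glycolysis enzymes, 0 were called by either tool, 2 had an unadjusted p under 0.05, and the median log2 change was -0.02. NDUFA4L2, a mitochondrial HIF target abundant in ccRCC that stood in the list of line markers, was called lower. It had 146, 137 and 143 in WT and 34.1, 36.6 and 51.1 in KIN cells (log2 change -1.80 ± 0.31 SE, adjusted p = 0.000609).

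**Figure D3:**
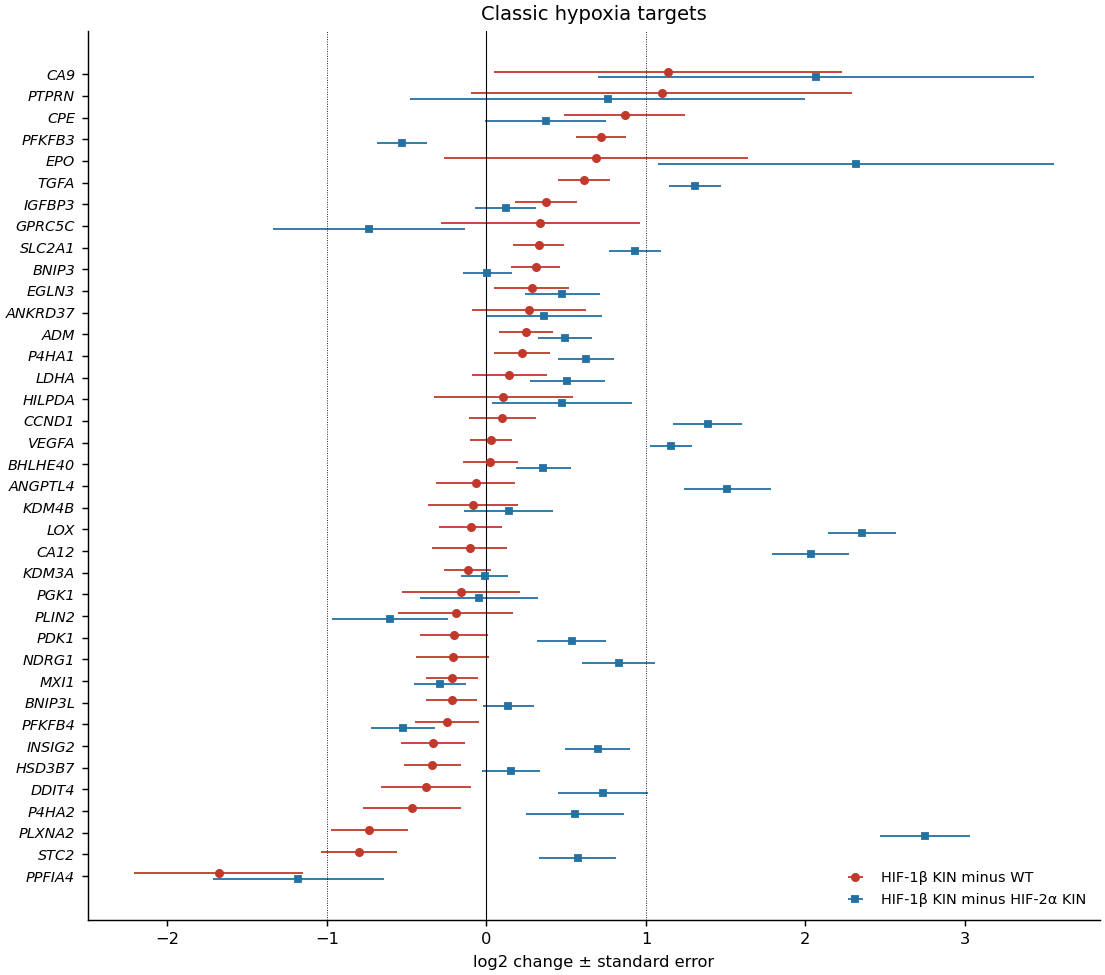
Log2 change with its standard error (horizontal axis) of 38 classic hypoxia targets in HIF-1β KIN against WT cells (red) and against HIF-2α KIN cells (blue), ordered by the first; dotted lines mark a 2-fold change. Red points gather around 0, and blue points such as those of LOX and PLXNA2 lie beyond a 2-fold change and were called.

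Genes of the extracellular matrix moved both ways, with more called lower than higher. Of 29 collagen chains, 2 were called higher and 4 lower, beside 1.38% of all tested genes, with a median log2 change of -0.13. COL6A3, a chain of the microfibrillar collagen VI, had 8161, 8434 and 8724 in WT and 833, 1109.7 and 1375 in KIN cells (log2 change -2.93 ± 0.20 SE, adjusted p = 6.89e-11). COL5A2, which helps to set the width of collagen fibrils, moved the other way, with 451, 585 and 631 and 1499, 1764 and 2239 (log2 change 1.72 ± 0.24 SE, adjusted p = 3.37e-05). Neither gene had a KIN library within the range of the WT libraries. The log2 change was -2.35, adjusted p = 0.000157, for COL12A1 and -4.84, adjusted p = 3.73e-05, for COL13A1, and COL9A2 was lower and COL4A5 higher. For COL9A2 the call was lost without HIF-1β KIN 1 or 2 (adjusted p from 0.0105 to 0.0146). Of 50 other matrix proteins, 2 were higher (TNFAIP6 and THBS1) and 5 lower (NID2, FN1, LTBP2, TNC and EFEMP1), beside 0.394% and 0.985% of all tested genes, with a median of -0.14 (-0.03 with members that had no read in 1 of the groups at their bound). For THBS1 the call was lost without HIF-1β KIN 1 or 3 or without WT 1 or 2 (adjusted p from 0.0168 to 0.0485). FN1, fibronectin, was one of the most abundant transcripts of the line, with 231086, 230910 and 154938 in WT and 43764, 46333 and 36958 in KIN cells (log2 change -2.29 ± 0.33 SE, adjusted p = 5.61e-05). Every KIN library was far below the lowest WT library. NID2, a basement membrane nidogen, had 967, 996 and 839.7 and 175, 168 and 204 (log2 change -2.36 ± 0.23 SE, adjusted p = 5.58e-08), and EFEMP1, a fibulin, 1380.3, 1300.1 and 1197 and 575, 630.1 and 472 (log2 change -1.22 ± 0.16 SE, adjusted p = 1.43e-05).

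Of 35 metalloproteases and their inhibitors, 1 was higher and 4 lower (2 and 6 with the block), beside 0.394% and 0.985% of all tested genes, with a median of -0.33 (-0.17 with members that had no read in 1 of the groups at their bound). ADAMTS5, an aggrecan-cleaving protease, had 1079.8, 778 and 898 in WT and 151, 96.1 and 152 in KIN cells (log2 change -2.79 ± 0.22 SE, adjusted p = 2.81e-09), whereas its family member ADAMTS12 had 13, 2.8 and 6.98 and 84.2, 88.8 and 59.5 (log2 change 3.31 ± 0.56 SE, adjusted p = 0.000403). The gelatinase MMP2 had 6151, 5844 and 5276 and 2123, 2895 and 2405 (log2 change -1.22 ± 0.24 SE, adjusted p = 0.00274), and the call was lost without HIF-1β KIN 1 or 3 or without WT 1 or 2 (adjusted p from 0.0132 to 0.0294). ADAMTS12 was thus close to absent in WT cells, and ADAMTS5 and MMP2 were expressed in both lines. For the second gelatinase, MMP9, the log2 change was -1.49, adjusted p = 0.00187, and the call was lost without HIF-1β KIN 1 or 2 or without WT 3 (adjusted p from 0.0151 to 0.0230). Of 30 integrins and classical cadherins, 2 were higher and 1 lower (2 and 2 with the block). ITGA3, the α3 chain of a laminin receptor, had 117757, 139801 and 171773 in WT and 246575, 281237 and 346812 in KIN cells (log2 change 1.02 ± 0.20 SE, adjusted p = 0.00290), and the call was lost without HIF-1β KIN 3 or without WT 1 or 2 (adjusted p from 0.0200 to 0.0253). ITGA4, the α4 integrin chain, rose from 7.72 ± 6.18 to 45.1 ± 3.49 (log2 change 2.48 ± 0.41 SE, adjusted p = 0.000370). CDH11, a mesenchymal cadherin, had 27.7, 25.2 and 18.8 in WT cells and 2 reads over the KIN libraries, 36.9-fold lower (95% counting interval 10.2 to 305).

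All called members of the interferon list were lower. Of 43 interferon-stimulated genes, 6 were called lower and 0 higher (10 and 0 with the block, and 7 in all by DESeq2), beside 0.985% of all tested genes called lower and 0.394% higher, and the median log2 change was -0.37. OAS1, which makes the activator of RNase L, had 137, 119 and 117 in WT and 33.1, 24 and 15.1 in KIN cells (log2 change -2.38 ± 0.40 SE, adjusted p = 0.000417). MX2, an antiviral GTPase, had 32.6, 22.4 and 25.8 and 4.27, 1.04 and 4.19 (log2 change -3.02 ± 0.55 SE, adjusted p = 0.00102), and the call was lost without HIF-1β KIN 2 (adjusted p = 0.0134). IFI44L had 23.6, 22.4 and 37 and 2.13, 3.13 and 4.19 (log2 change -3.07 ± 0.58 SE, adjusted p = 0.00158), and the call was lost without HIF-1β KIN 1 or 2 or without WT 3 (adjusted p from 0.0110 to 0.0176). OAS1, MX2 and IFI44L were low in both lines, and their groups did not overlap. CMPK2, a mitochondrial nucleotide kinase, had a log2 change of -2.89, adjusted p = 0.00193, and the call was lost without HIF-1β KIN 1 or 3 or without WT 3 (adjusted p from 0.0147 to 0.0216). IFI27 and IRF7 were also lower. For IFI27 the call was lost without HIF-1β KIN 2 or 3 or without WT 1 or 2 (adjusted p from 0.0202 to 0.0431), and for IRF7 the call was lost without HIF-1β KIN 1 or 3 or without WT 2 (adjusted p from 0.0206 to 0.0263). Of 44 chemokines, interleukins and NF-κB targets, only CXCL1 was called, lower, with 921, 951 and 699 and 450.0, 395 and 359 (log2 change -1.10 ± 0.22 SE, adjusted p = 0.00358); the call was lost without HIF-1β KIN 1, 2 or 3 or without WT 1 or 2 (adjusted p from 0.0105 to 0.0277). With the block 1 gene of that list was higher and 4 lower, and its median was -0.34 (-0.31 with members that had no read in 1 of the groups at their bound). In the 19 antigen presentation genes, HLA-DPB1 alone was called. It had 2 reads over the WT libraries and 19.2, 17.8 and 6.7 normalized counts in KIN cells, 27.2-fold higher (95% counting interval 7.52 to 224), and the call was lost without HIF-1β KIN 1 or 2 or without WT 1, 2 or 3 (adjusted p from 0.0110 to 0.0220).

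In the signalling pathways, genes moved in both directions, and the counts stand beside 1.38% of all tested genes called. Of 26 Notch pathway genes 2 were higher and 1, MFNG, lower, with a median log2 change of -0.15 (0.00 with members that had no read in 1 of the groups at their bound). The ligand JAG1 had 3961, 4669 and 3382 in WT and 7433, 15134 and 9060.4 in KIN cells (log2 change 1.39 ± 0.30 SE, adjusted p = 0.00682), and the call was lost without HIF-1β KIN 2 or 3 or without WT 1, 2 or 3 (adjusted p from 0.0105 to 0.0848). The target HES1 had 283, 365 and 364 and 543, 766 and 897 (log2 change 1.12 ± 0.22 SE, adjusted p = 0.00294), and the call was lost without HIF-1β KIN 2 or 3 or without WT 1, 2 or 3 (adjusted p from 0.0104 to 0.0279). For both, the lowest KIN library was above the highest WT library by a moderate margin. Of 44 genes of the TGF-β, BMP and activin pathways 2 were higher (TMEFF2 and SMAD6) and 2 lower (INHBE and NOG; 4 and 2 with the block), with a median of 0.06. INHBE, an activin subunit gene, had 511, 299 and 375 and 41.6, 34.5 and 51.9 (log2 change -3.21 ± 0.35 SE, adjusted p = 6.23e-07), and the BMP antagonist NOG 77.4, 45.7 and 81.7 and 13.9, 2.09 and 5.03 (log2 change -3.30 ± 0.51 SE, adjusted p = 0.000129). SMAD6, an inhibitory SMAD, had 878, 816 and 879 and 1682, 1903 and 2765 (log2 change 1.30 ± 0.26 SE, adjusted p = 0.00346), and the call was lost without HIF-1β KIN 3 or without WT 1, 2 or 3 (adjusted p from 0.0163 to 0.0351).

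WNT ligands accounted for all called members of the WNT list, 1 higher and 2 lower of 36 tested, with a median of 0.32 (0.24 with members that had no read in 1 of the groups at their bound). WNT7B had 1908, 2926 and 3027 in WT and 5860.1, 6619.6 and 8342 in KIN cells (log2 change 1.40 ± 0.24 SE, adjusted p = 0.000403). WNT10A had 379, 303 and 364 and 56.5, 23 and 74.6 (log2 change -2.76 ± 0.37 SE, adjusted p = 1.69e-05), and WNT5B 96.1, 102 and 121 and 51.2, 20.9 and 35.2 (log2 change -1.58 ± 0.26 SE, adjusted p = 0.000343). Of 46 growth factors and receptors 2 were higher, PDGFD and AREG, and 1 was lower (4 and 2 with the block; median 0.26). AREG, amphiregulin, an EGF receptor ligand, had 546, 586 and 554 and 1666, 1152 and 1280.0 (log2 change 1.27 ± 0.21 SE, adjusted p = 0.000262).

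Axon guidance genes and ion channels were called mostly in the lower direction. Of 57 axon guidance ligands and receptors 5 were lower and 0 higher (5 and 2 with the block), beside 0.985% and 0.394% of all tested genes, while the median log2 change was within 0.01 of 0. SEMA3B, a secreted semaphorin, had 3801, 2835 and 3332 in WT and 973, 597 and 1019 in KIN cells (log2 change -1.95 ± 0.26 SE, adjusted p = 1.89e-05). NTN1, netrin-1, had 143, 156 and 163 and 22.4, 10.4 and 24.3 (log2 change -3.00 ± 0.37 SE, adjusted p = 4.37e-06), and its receptor gene UNC5B was lower too. No KIN library of these genes came near the WT range. The ephrin receptor EPHB1 had a log2 change of -3.21, adjusted p = 2.11e-05, and SEMA6B one of -1.88, adjusted p = 2.91e-05. Of 79 potassium, sodium and calcium channel genes 1, KCNJ8, was higher and 7 were lower (2 and 7 with the block), with a median of -0.39 (-0.26 with members that had no read in 1 of the groups at their bound). Beside KCNH2 and KCNJ15, KCNS1, a modulatory subunit, had 42.3, 41.1 and 48.9 in WT cells and 2 reads over the KIN libraries, 68.1-fold lower (95% counting interval 18.8 to 562), and the background potassium channel KCNK3 had 1312, 1428 and 1752 and 543, 528 and 766 (log2 change -1.29 ± 0.21 SE, adjusted p = 0.000230). Of 282 solute carriers 2 were higher and 9 lower, 3.9% of the list in all beside 1.38% of all tested genes. SLC37A1, a sugar phosphate exchanger, had 768, 751 and 764 and 141, 109 and 142 (log2 change -2.55 ± 0.17 SE, adjusted p = 4.29e-11), and the glutamine transporter SLC38A5 222, 218 and 239 and 12.8, 18.8 and 24.3 (log2 change -3.58 ± 0.39 SE, adjusted p = 7.54e-07). Both transporters were far lower in every KIN library than in any WT library. The glycine transporter SLC6A9 had a log2 change of -1.13, adjusted p = 2.37e-06, and the bicarbonate transporter SLC4A8 one of 2.12, adjusted p = 6.84e-06.

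A few lineage genes were called, and the counts stand beside 0.394% of all tested genes called higher and 0.985% called lower. Of 35 HOX cluster genes HOXB2 was higher and HOXB13 lower. HOXB2 had 1222, 958 and 1188 in WT and 2301, 2189 and 2779 in KIN cells (log2 change 1.11 ± 0.23 SE, adjusted p = 0.00402), and the call was lost without HIF-1β KIN 1 or 3 or without WT 1, 2 or 3 (adjusted p from 0.0115 to 0.0398); HOXB13 had 19.5, 12.1 and 27.2 in WT cells and 1 read over the KIN libraries, 60.6-fold lower (95% counting interval 10.9 to 2395). Of 25 kidney genes ANPEP was higher and POU3F3, a nephron regulator, lower, with no read in KIN cells, at least 3.55-fold lower; the call was lost without HIF-1β KIN 1, 2 or 3 or without WT 3 (adjusted p from 0.0146 to 0.0170), and with the block 1 kidney gene was higher and 2 lower. Of 25 genes of epithelial to mesenchymal transition 1 was higher and 2 lower (3 and 2 with the block). HOXB2 and ANPEP were well expressed in both lines, HOXB13 and POU3F3 only weakly in WT cells. ESRP2, an epithelial splicing regulator, had 318, 365 and 417 and 605, 766 and 851 (log2 change 1.01 ± 0.20 SE, adjusted p = 0.00242), and the call was lost without HIF-1β KIN 2 or 3 or without WT 1 or 2 (adjusted p from 0.0128 to 0.0235). EPCAM, an epithelial adhesion molecule, went the other way with 399.8, 332 and 279 and 164, 159.9 and 111 (log2 change -1.22 ± 0.23 SE, adjusted p = 0.00194), and the call was lost without HIF-1β KIN 3 or without WT 1 (adjusted p from 0.0192 to 0.0226). The epithelial genes ESRP2 and EPCAM thus moved in opposite directions. RARRES2, the adipokine chemerin, was the only called gene of 22 in retinoid metabolism, with 32512, 27920.4 and 26865 and 88018, 65587 and 75903 (log2 change 1.39 ± 0.21 SE, adjusted p = 0.000129); with the block 2 genes of that list were higher and 1 lower. In the 31 nuclear pore proteins NUP210 was the only one called, and the others lay between -0.56 and 0.33 on the log2 scale.

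Single members were called in the lists of clustered protocadherins (PCDHB2, from 32.1 ± 6.15 to 122 ± 31.4 normalized counts), endothelial markers (ESAM, from 34.2 ± 4.62 to 102 ± 14.4) and neuronal markers (SNAP25, a synaptic SNARE protein, from 232 ± 18.5 to 19.4 ± 9.71). For PCDHB2 the call was lost without HIF-1β KIN 2 or without WT 1 or 3 (adjusted p from 0.0146 to 0.0201), and with the block 2 protocadherins were higher. Of 14 cancer-testis genes MAGEA3 and TEX15 were lower. MAGEA3 had 28.5, 32.7 and 16.8 in WT cells and 1 read over the KIN libraries, 80.2-fold lower (95% counting interval 14.4 to 3168), and TEX15, without a read in KIN cells, was at least 1.96-fold lower; the call was lost without HIF-1β KIN 1, 2 or 3 or without WT 1 (adjusted p from 0.0181 to 0.0241). Of 476 zinc-finger genes ZNF362 (-3.12, adjusted p = 0.000553) and ZNF439 (-1.46, adjusted p = 0.00929) were lower, 0.42% of the list and under the 1.38% of all tested genes; for ZNF439 the call was lost without any 1 of the 6 libraries (adjusted p from 0.01 to 0.0738). Cell cycle and housekeeping lists had no called gene in edgeR's test. At 1.38% of all tested genes called, short lists hold few calls or none. Here and above, counts with an unadjusted p under 0.05 stand without the share of all tested genes. Among 45 proliferation genes the median log2 change was 0.05, and 4 had an unadjusted p under 0.05. Among 24 p53 targets the median was 0.04, with 8 under 0.05, and among 32 genes of the unfolded protein and amino acid response it was within 0.01 of 0, with 8. DESeq2 called 0 genes in these lists. None of 33 genes of sterol and fatty acid synthesis were called by edgeR and 1 by DESeq2, and 5 had an unadjusted p under 0.05. Of 100 respiratory chain genes 0 were called by edgeR, 2 by DESeq2 and 1, COX5A, with the block, with 5 under an unadjusted p of 0.05. Of 79 ribosomal protein genes 0 were called by either tool and 4 had an unadjusted p under 0.05, with a median log2 change of 0.32. In 13 IGF-binding and CCN proteins, 19 metallothionein and iron genes and 13 genes of the mitochondrial genome, 0 were called by either tool, and 1, 2 and 0 had an unadjusted p under 0.05.

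**Figure D4:**
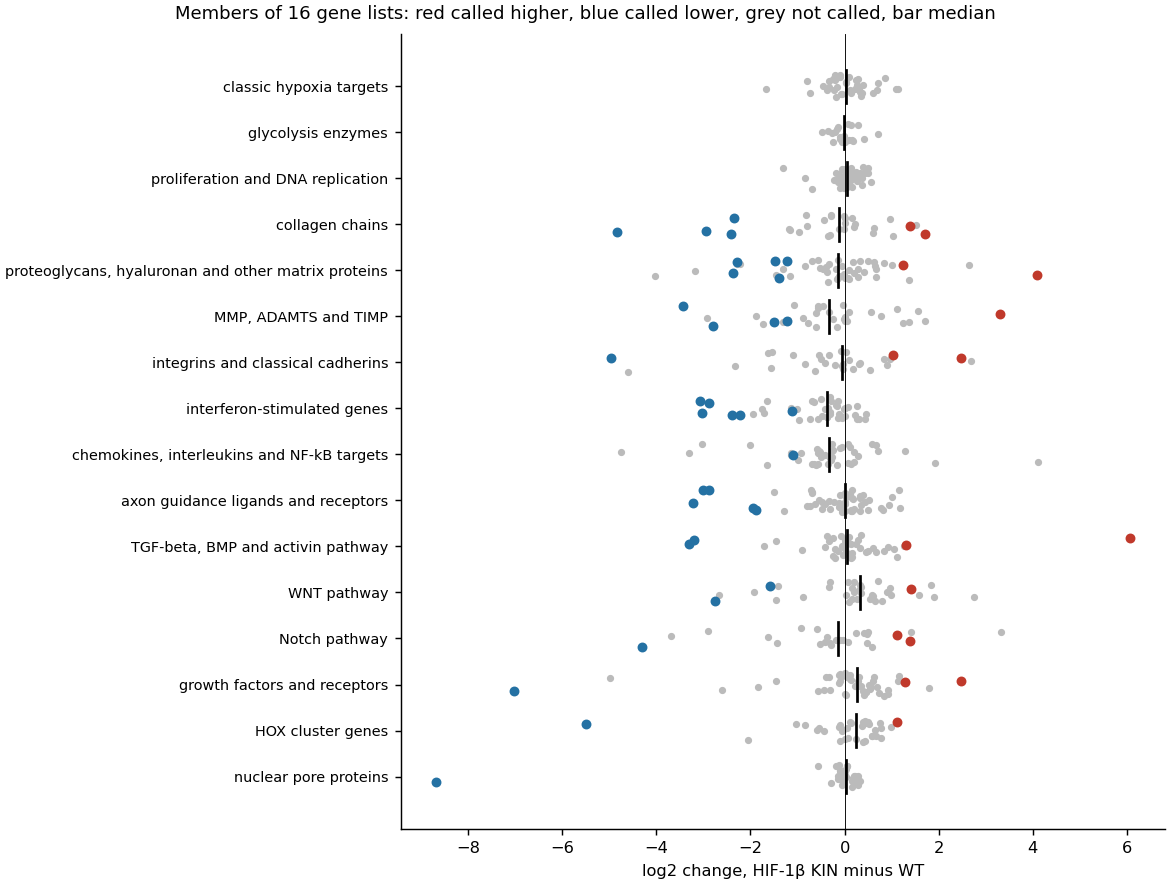
Log2 change from WT to HIF-1β KIN cells (horizontal axis) of the tested members of 16 gene lists; red points were called higher, blue called lower and grey not called, and the black bar is the median of the list. Medians run from -0.37 in the interferon row to 0.32 in the WNT row. Blue points outnumber red in several rows, such as interferon, axon guidance, metalloprotease, collagen and other matrix proteins. The hypoxia, glycolysis and proliferation rows have no coloured point.

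Called genes lay on every autosome and on X, but 3 chromosome arms differed as wholes. For each library the log2 ratio of every gene to its mean in WT cells was taken, and the median over the genes of an arm was set against the median over all genes. Over 981 genes of 17q the KIN libraries were at 0.22, 0.33 and 0.45 and the WT libraries at -0.03, 0.02 and 0.02. Over 800 genes of 15q they were at 0.22, 0.27 and 0.17 in KIN and 0.03, 0.01 and -0.04 in WT libraries. Over 893 genes of 12q they were at -0.20, -0.23 and -0.23 and 0.02, -0.02 and -0.01. On these arms all KIN libraries lay outside the range of the WT libraries and of the 18 transgene libraries, and 72.1%, 62.2% and 26.2% of the tested genes had a higher fitted level in KIN cells. On 12q the margin was very narrow, with the lowest transgene library at -0.2041 and HIF-1β KIN 1 at -0.2048. The highest transgene library was at 0.14 on 17q and 0.09 on 15q. All KIN libraries were outside the WT range alone on 7 of 41 arms, these 3 included. Among the 38 other arms with at least 50 tested genes the mean over KIN libraries ran from -0.13 on 12p to 0.05 on 11p. HIF-2α KIN cells shared the rise on 17q, at 0.65, 0.61 and 0.63, but on 15q they were at -0.13, -0.06 and -0.16 and on 12q at 0.07, 0.05 and 0.00. Within 17q the shift was greatest between positions 48611377 and 50692253 of hg38, where the median fitted log2 change over 40 genes with a mean of at least 10 normalized counts was 0.67 and 34 of them were higher; ITGA3 lies there, and HOXB2 lies in the stretch before it (45435900 to 48633572), with a median of 0.61. On chromosome 12 the lowest stretch, 121795267 to 123633766, had a median of -0.38. The numbers of called genes on these arms were 11 higher and 8 lower on 17q, 7 and 4 on 15q, and 2 and 17 on 12q, where NDUFA4L2, INHBE and OAS1 lie. Of all tested genes 0.394% were called higher and 0.985% lower, 1.38% in all. The share called on 15q in either direction was close to that of all tested genes. Copy number was not measured here, and its part in these shifts was not tested.

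**Figure D5:**
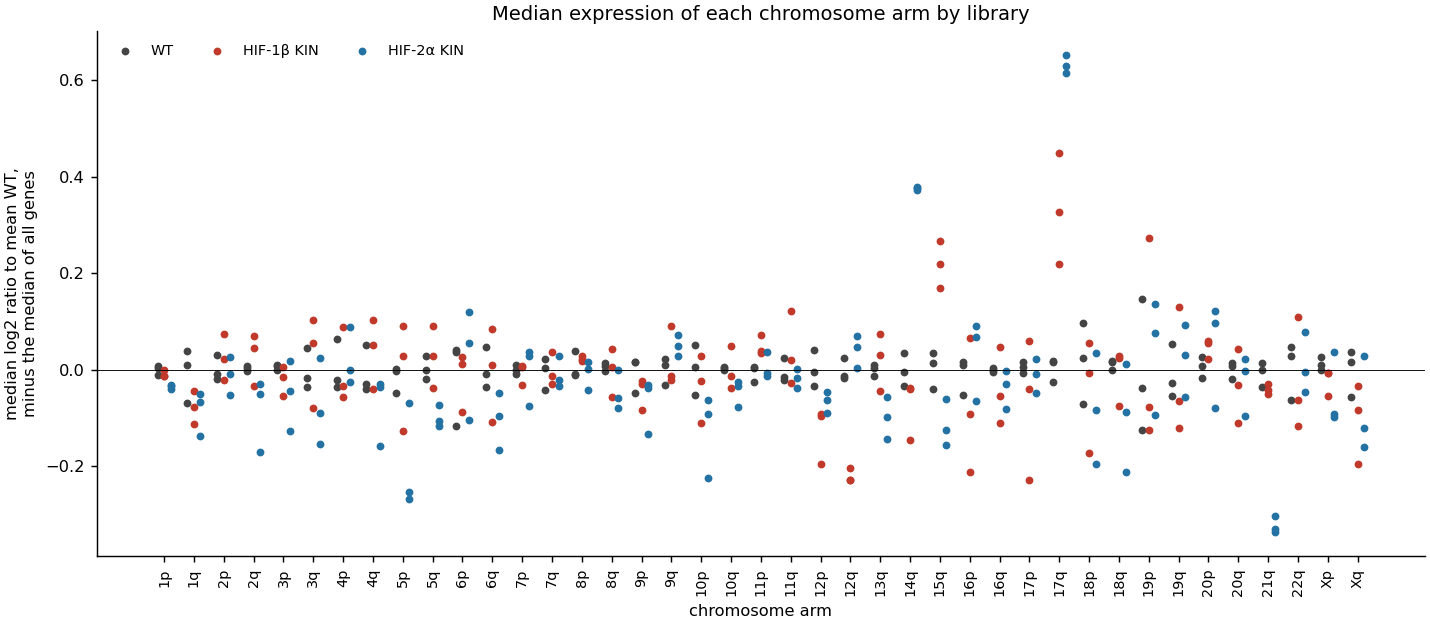
Median log2 ratio to the mean of WT cells over the tested genes of each chromosome arm, minus the median over all genes (vertical axis), for single libraries of WT (black), HIF-1β KIN (red) and HIF-2α KIN cells (blue). Red points stand above the black on 15q and 17q and below them on 12q, and blue points stand apart on 14q, 17q and 21q.

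To set the clone beside a second one edited in the same way, HIF-1β KIN cells were compared directly with HIF-2α KIN cells. Here 202 genes had higher and 371 had lower counts in the HIF-1β line, 2.46% of those tested; without HIF-1β KIN 1 the number of lower genes was 237. Of the 39 classic hypoxia targets 8 were higher in HIF-1β KIN cells and 0 lower, with a median log2 difference of 0.51 beside a value within 0.01 of 0 for all tested genes. VEGFA had 7832, 6869 and 7238 normalized counts in HIF-2α KIN cells, below all HIF-1β KIN libraries (log2 difference 1.16 ± 0.13 SE, adjusted p = 9.59e-07). LOX, lysyl oxidase, had 699.6, 540.2 and 755 in HIF-1β KIN and 153, 76.8 and 153 in HIF-2α KIN cells (log2 difference 2.36 ± 0.22 SE, adjusted p = 2.46e-08), and PLXNA2, a semaphorin receptor, 176, 242 and 276 and 43.3, 43.3 and 19 (log2 difference 2.75 ± 0.28 SE, adjusted p = 1.59e-07). EPAS1 itself had 5642, 6592 and 5845 in HIF-2α KIN cells and did not pass (log2 difference 0.75 ± 0.20 SE, adjusted p = 0.0199). Against WT cells, EPAS1 was called lower in HIF-2α KIN cells (log2 change -1.23, adjusted p = 0.000102, edgeR's test). VEGFA (log2 change -1.13, adjusted p = 8.92e-07) and LOX (log2 change -2.45, adjusted p = 8.34e-09) were called lower there too. Neither VEGFA nor LOX was called between HIF-1β KIN and WT cells, so their difference between the clones includes a fall in HIF-2α KIN cells.

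For the genes with the largest changes, the clones were close in some and apart in others. WT cells are the control of both, so a likeness in their change from WT rests in part on shared libraries. The genes were picked for extreme values in the HIF-1β KIN libraries, so differences from other lines in that direction are partly built in. NUP210 had 15.3, 19.5 and 48.7 in HIF-2α KIN cells, KCNH2 8.91, 25.1 and 33.8 and MFNG 141, 168 and 265. In these 3 genes HIF-2α KIN cells were also far below WT cells, and the difference between the clones was not called (adjusted p = 0.0178, 0.785 and 0.966). The lowest of the 18 transgene libraries had 1328 for NUP210, 796 for KCNH2 and 1245 for MFNG, all far above both clones. Of the 14 genes with the largest fall, 13 had every transgene library above every HIF-1β KIN library. RCSD1 is among these 13 by a small margin, since its lowest transgene library had 1.56 normalized counts, with a median of 124 over the 18. HIF-2α KIN cells had 1 read of RCSD1 over their 3 libraries, and the difference between the clones was not called. TRABD2A kept 419, 353 and 328 in HIF-2α KIN cells (log2 difference -3.86 ± 0.22 SE, adjusted p = 2.97e-12). L1CAM, a neural adhesion molecule whose log2 change from WT (-4.04, adjusted p = 2.45e-11) was the next after the 14, had 3309, 2917 and 4504 in WT, 218, 159.9 and 276 in HIF-1β KIN and 3945, 2694 and 3909 in HIF-2α KIN cells (log2 difference -4.02 ± 0.25 SE, adjusted p = 1.67e-11). Of the 14 genes with the largest rise, 8 were also higher than in HIF-2α KIN cells and 1, ATP8B2, was lower. Every transgene library was below every HIF-1β KIN library for 8 of the 14. The transgene libraries ran from 227 to 1207 for SCARA3 and from 262 to 1016 for ATP8B2. For both genes they lay above every WT library and reached past the HIF-1β KIN libraries. For NME4 they ran from 234 to 734, also above every WT library, and for TNFAIP6 from 25.9 to 674. SPN, with 149, 97.7 and 106 in HIF-2α KIN cells (log2 difference 4.65 ± 0.27 SE, adjusted p = 2.81e-12), and NME4, with 30.5, 23.7 and 28.9 (log2 difference 4.83 ± 0.26 SE, adjusted p = 4.69e-13), were below WT there and above WT in HIF-1β KIN cells.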

How the data were processed

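Poly(A) RNA from the 27 libraries of the first batch (3 WT, 3 HIF-1β KIN, 3 HIF-2α KIN and 18 of the transgene lines) was analysed; of the 42 libraries of the series, 3 WT libraries of the second batch are given as values and 12 others were not used here. The values deposited by the authors are raw counts of reads per gene, without normalization. Per the study's methods, reads were aligned to hg38 with STAR, keeping unique alignments only, and counted without strand over GENCODE genes with HTSeq; the submitters' processing notes list STAR 2.7, SAMtools 1.9 and HTSeq 0.11.1. The kit does not keep strand, and no spike-in rows were among the genes. Gene positions were taken from a later GENCODE release, matched by gene ID.

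Counts were scaled by TMM, genes with a mean of at least 0.5 normalized counts over the 27 libraries were kept (23339), and all were fitted together with edgeR 4.0.16 (quasi-likelihood test, group means, R 4.3.3), adjusted by Benjamini-Hochberg. A gene was called at an adjusted p of at most 0.01 and a change of at least 2-fold. Alternatives were DESeq2 1.42.0, RLE scaling, no filter, the 6 libraries alone, a replicate block, other thresholds and leaving out each library. Scripts were tested on simulated counts. Named genes were the 14 with the largest rise and the 14 with the largest fall among called genes with a mean of at least 50 normalized counts over the 6 libraries, with no overlap of the groups, up to 4 called members of each list by adjusted p, and where none was called 1 to 3 members by level; ARNT2, AHR, VEGFA, PFKFB3, PPFIA4, UGT1A6, LOX and PLXNA2, and genes of which only the direction or a call in another fit is given, were chosen after their values were seen. Results for a few genes that the rule names are not reported here. The members and lists were chosen with earlier results of these data known.

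Replicate numbers were taken to pair the samples. Deviations from the group means correlated at 0.453, 0.418 and 0.680 over 15411 genes between same-numbered WT and HIF-1β KIN libraries. The mean between other pairs was -0.246, which largely follows from the first values, since deviations within a group sum to 0. HIF-1β KIN 2 and WT 1 correlated at 0.309, so numbers 1 and 2 were told apart less clearly than number 3. Replicates differed by more than counting noise (chi-square per degree of freedom 76.1 to 374). At these depths 3 reads were 0.0296 to 0.0501 CPM. The study's methods call the replicates biological; p-values measure their spread within 1 clone.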

Additional observations from a re-analysis of the deposited data

Results flagged for a closer look

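The genes below, from those with the largest changes, differed between the 2 edited clones in a test of that difference, so that the size of their change from WT cells differed. The log2 difference compares the libraries of the 2 clones, while the WT libraries entered the scaling, the filter and the estimate of the spread. Because the genes were picked by the same HIF-1β KIN libraries, a difference in the direction of the pick is partly built in. The values are log2 differences, HIF-1β KIN minus HIF-2α KIN, and all adjusted p-values are edgeR's over 23339 genes. 8 of the genes with the largest rise were higher in HIF-1β KIN cells: PDGFD by 7.97 (adjusted p = 3.80e-07), NME4 by 4.83 (adjusted p = 4.69e-13), SPN by 4.65 (adjusted p = 2.81e-12), BEND3P1 by 4.31 (adjusted p = 1.73e-05), TRO by 4.00 (adjusted p = 3.20e-07), TSPAN11 by 3.26 (adjusted p = 5.60e-05), EPHX4 by 2.63 (adjusted p = 0.000109) and TMEFF2 by 1.86 (adjusted p = 0.00282). PDGFD had 1 read over the 3 HIF-2α KIN libraries, which makes it 330.5-fold higher in HIF-1β KIN cells with a 95% counting interval of 59.3 to 13054. ATP8B2 was lower than in HIF-2α KIN cells, at -1.89 (adjusted p = 2.52e-08), although higher than in WT cells.

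Among the genes with the largest fall given here, 3 were lower in HIF-1β KIN than in HIF-2α KIN cells: TRABD2A at -3.86 (adjusted p = 2.97e-12), PTCH1 at -3.67 (adjusted p = 1.91e-07) and LOXL1-AS1 at -3.60 (adjusted p = 2.68e-09). TRABD2A had 419, 353 and 328 normalized counts in HIF-2α KIN cells and PTCH1 43.3, 62.8 and 68.4. HS6ST2 and KCNJ15 were higher in HIF-1β KIN cells, by 4.11 (adjusted p = 0.00244) and 2.99 (adjusted p = 0.000731). HS6ST2 also had a single read over the HIF-2α KIN libraries, and was 23.6-fold higher in HIF-1β KIN cells (4.24 to 932). With 3 libraries in a group no single library was tested for standing apart from the rest.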

How the results depend on the processing

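Of the tested genes, 92 were higher in the fit reported, 162 with the replicate block, 155 with DESeq2, 141 with no filter on low counts, 145 at an adjusted p of 0.05 and 144 with no fold minimum, and leaving out 1 library gave 53 (without WT 2) to 77. The number lower was 230, 316 with the block, 303 with DESeq2, 301 with no filter and 128 when only the 6 libraries were fitted, which leaves fewer libraries for the estimate of the spread; leaving out 1 library gave 154 to 190. Set against HIF-2α KIN cells, 202 genes had higher counts, and 337 with the libraries numbered 1 and 2 only, an alternative chosen after seeing the data; 371 were lower, and leaving out 1 library gave 237 (without HIF-1β KIN 1) to 326. The ARNT log2 change, -0.01, was 0.0035 with DESeq2 and with RLE scaling, 0.013 with the 6 libraries alone and from -0.161 to 0.0933 when 1 library was left out, and was called in none of them. The median of 12q was -0.28, -0.26 with RLE and -0.26 over genes with a mean of at least 10 normalized counts (-0.28 to -0.23 when 1 library was left out), and that of 15q was 0.22 and 0.30 over those genes (0.17 to 0.27). The 17q median of 0.30 was 0.23 to 0.34 when 1 library was left out. The cause of these shifts was not tested. Of 1200 values of named genes under an alternative, 1052 kept their direction and their side of the threshold, 142 lost the call and 6, all of ARNT, changed sign. Counts called in a gene list moved by over 1.5 times in 152 of 984 cases. The block ended none of the 322 calls and added 1 or 2 members to several lists for which the report gives no count with it. Genes under 3 reads per library were beyond what this depth shows.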

Other observations

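A number of called genes fell into groups that were put together after their values had been seen, so the counts describe these libraries and support nothing. Of all tested genes 0.985% were called lower and 0.394% higher. Desmosome proteins, which anchor keratin filaments at cell junctions, had 4 of 9 tested genes called lower and 0 higher. DSP, desmoplakin, had 39.1, 21.5 and 23.7 normalized counts in WT cells and 2 reads over the KIN libraries, 43.4-fold lower (95% counting interval 12 to 358). JUP, plakoglobin, had 398, 479.7 and 659.6 and 98.1, 157 and 251 (log2 change -1.60 ± 0.27 SE, adjusted p = 0.000434). DSC2 and PKP1 had no read in any KIN library and were at least 2.3-fold lower and at least 2.09-fold lower. For DSC2 the call was lost without HIF-1β KIN 1, 2 or 3 or without WT 1 or 3 (adjusted p from 0.0133 to 0.0239), and for PKP1 the call was lost without HIF-1β KIN 3 (adjusted p = 0.0112). The desmoglein DSG2 was not called, with 9014, 8320.3 and 6302 and 7400.0, 8833 and 5140.0 (log2 change -0.15 ± 0.26 SE, adjusted p = 0.880). In the lysyl oxidases and latent TGF-β binding proteins, 4 of 9 were lower and 0 higher. LTBP4 had 10529, 12382 and 14431 in WT and 3666, 4227 and 5743 in KIN cells (log2 change -1.46 ± 0.25 SE, adjusted p = 0.000500), and LOXL3 109, 84 and 99.8 and 10.7, 15.7 and 20.1 (log2 change -2.64 ± 0.31 SE, adjusted p = 1.70e-06). LOX and LOXL2 were not called, at log2 changes of -0.10 and -0.11.

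The counts of the next 3 groups, also put together afterwards, stand beside 0.985% of all tested genes called lower and 0.394% called higher. Of 26 genes for the synthesis, transport and reception of eicosanoids, 5 were lower and 0 higher. PTGES, the inducible prostaglandin E synthase, had 1314, 1113 and 1312 in WT and 86.4, 99.3 and 114 in KIN cells (log2 change -3.64 ± 0.33 SE, adjusted p = 1.85e-08). The prostaglandin E2 receptor PTGER2 had 287, 385 and 369 and 148, 186 and 174 (log2 change -1.04 ± 0.23 SE, adjusted p = 0.00864), and ALOX5AP, which presents arachidonic acid to 5-lipoxygenase, 1081, 725 and 544 and 304, 225 and 132 (log2 change -1.84 ± 0.40 SE, adjusted p = 0.00637). For PTGER2 the call was lost without HIF-1β KIN 1, 2 or 3 or without WT 2 or 3 (adjusted p from 0.0247 to 0.0651), and for ALOX5AP the call was lost without HIF-1β KIN 2 or 3 or without WT 1 or 2 (adjusted p from 0.0181 to 0.0573). SLCO2A1, a prostaglandin transporter, had no read in KIN cells and was at least 3.25-fold lower. Of 18 Hedgehog pathway genes PTCH1 and HHIP, both of which bind the ligand, were lower and 0 higher. HHIP had 17.9, 14 and 32.1 in WT cells and 1 read over the KIN libraries, 65.9-fold lower (95% counting interval 11.8 to 2603), while the transcription factor GLI1 had 69.2, 42.9 and 67 and 35.2, 59.6 and 79.6 and was not called (log2 change -0.04 ± 0.35 SE, adjusted p = 0.996). Of 5 tested genes of the SLITRK and L1 adhesion families 2 were higher (SLITRK4 and SLITRK5) and 2 lower (SLITRK2 and L1CAM). SLITRK2 had 941, 691 and 736 in WT and 309, 381 and 387 in KIN cells (log2 change -1.14 ± 0.23 SE, adjusted p = 0.00377), and SLITRK5 263, 264 and 275 and 552, 532 and 586 (log2 change 1.05 ± 0.21 SE, adjusted p = 0.00277). For SLITRK2 the call was lost without HIF-1β KIN 1, 2 or 3 or without WT 1 (adjusted p from 0.0122 to 0.0373), and for SLITRK5 the call was lost without HIF-1β KIN 1 or 3 or without WT 1, 2 or 3 (adjusted p from 0.01 to 0.0169).

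WT cells were sequenced again in the second batch, with another extraction and library kit, in 3 libraries that entered no test here. In CPM of gene-assigned reads, NUP210 was at 31.2, 29.1 and 29.4 in those WT libraries and at a mean of 59 in the WT and 0.124 in the HIF-1β KIN libraries of the first batch. TMEFF2 was at 0.0221, 0.0456 and 0.136 in the second batch, and at 0.15 in the WT and 10.3 in the HIF-1β KIN libraries of the first.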
